A study of Mus musculus with 12 samples.

Results

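The genes described here are 6 members of the mouse Ly6 family of surface proteins, Ly6c1, Ly6c2, Ly6i, Ly6a, Ly6e and Ly6g, taken by symbol from a deposited count table of 25919 rows. All 6 were in the table and all 6 passed the filter on low counts, as did 9852 genes in all. The table comes from 3'-end sequencing of poly(A) RNA in bulk, from livers of C57BL/6 mice aged 7 weeks by the labels. Of 12 samples in 4 labelled groups, those labelled Kupffer cells at day 0 (2 libraries, a and b) and CD40 at day 2 (4 libraries, a to d) were compared. No treatment, genotype, sort or starting event of the days is given, so cell label and day differ together and cannot be told apart. Another day 2 group, not read by gene, is labelled Ly6c and CD40negative, and the sources do not say whether the CD40 libraries were selected on Ly6C or CD40. The letters are names only, and nothing in the labels says which libraries came from separate animals, although the design text speaks of biological replicates. P-values are thus a measure of variation among these libraries alone, which could be technical.

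Ly6 proteins are small extracellular proteins with a compact fold of loops held by disulphide bonds, and most are tied to the outer membrane by a glycosylphosphatidylinositol (GPI) anchor. Several serve as everyday surface markers: Ly6C marks classical monocytes and some endothelial and lymphoid cells, Ly6G marks mouse neutrophils, and the product of Ly6a is the stem cell antigen Sca-1. Ly6a and Ly6e are also known as genes that respond to interferon in many cell types.

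The 6 genes lie in 1 stretch of 204 kb on chromosome 15 (GRCm38, GENCODE M21). In order, Ly6e runs from 74955051 to 74959905 on the plus strand, Ly6i from 74979534 to 74983430, Ly6a from 74994877 to 74998031, Ly6c1 from 75044018 to 75048830 and Ly6c2 from 75108158 to 75111970, all 4 on the minus strand, and Ly6g from 75155240 to 75159126 on the plus strand. Each is protein coding with 3 coding exons, and none overlaps another annotated gene. The annotation holds 22 genes from 100 kb before Ly6e to 100 kb after Ly6g, and the 6 that were matched in the count table are the 6 members.

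How alike the members are decides how far counts can be assigned to each, so the last 90 coding bases are shown, without the stop codon. They are given 5′ to 3′ from the principal GENCODE M21 transcripts, and capitals mark bases that differ from Ly6c2 at the same place.
Ly6c2: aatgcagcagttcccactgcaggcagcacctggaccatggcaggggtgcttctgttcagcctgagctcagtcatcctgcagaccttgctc
Ly6c1: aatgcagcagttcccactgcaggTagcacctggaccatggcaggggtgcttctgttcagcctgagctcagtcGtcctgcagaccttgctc
Ly6a: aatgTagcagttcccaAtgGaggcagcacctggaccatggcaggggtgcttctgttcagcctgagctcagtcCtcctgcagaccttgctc
Ly6i: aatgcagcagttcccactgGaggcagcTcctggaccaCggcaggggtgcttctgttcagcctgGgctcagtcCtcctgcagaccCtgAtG
Ly6g: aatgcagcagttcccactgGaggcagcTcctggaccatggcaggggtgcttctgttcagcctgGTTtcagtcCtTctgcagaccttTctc
Ly6e: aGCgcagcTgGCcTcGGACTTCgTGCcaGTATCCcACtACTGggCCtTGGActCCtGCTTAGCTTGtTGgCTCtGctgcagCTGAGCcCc
In this stretch Ly6c1 differed from Ly6c2 at 2 bases, Ly6a at 4, Ly6i and Ly6g at 8 each, and Ly6e at 59. Over the whole coding sequence, of 393 bases in both, Ly6c1 and Ly6c2 were 97.7% identical with 9 differing bases. Ly6i and Ly6a were 86.3% identical, and Ly6e was 46.2% to 51.0% identical to the others.

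Counting at the 3' end reads the last part of a transcript, which includes the 3' untranslated region. The last 500 bases of each principal transcript were therefore cut into all 426 windows of 75 bases, the length of the cDNA read in the protocol. Identical windows were sought in all annotated transcripts. Windows within 3 differences were sought only in genes of the chromosome 15 stretch and its flanks and in some further Ly6 family genes. Between Ly6c1 and Ly6c2, 50 windows (11.7%) were identical. Within 3 differences of another gene of that smaller set lay 99.3% of Ly6c1 windows and 100% of Ly6c2 windows. For Ly6i the share within 3 differences was 18.3%, for Ly6a 16.0% and for Ly6g 5.87%, with no identical window. No Ly6e window came that close to another gene of the smaller set. The split of counts between Ly6c1 and Ly6c2 is therefore uncertain. How reads with several matches were handled is not given in the sources used here.

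Total counts came to 1612435 and 688498 in the Kupffer day 0 libraries and 725683 to 2271228 in the CD40 day 2 libraries. Cd40, the receptor that gives the second group its label, was at 330 ± 72.6 CPM (counts scaled to a common library total of 1000000, mean ± SD, n = 4) in CD40 day 2 and at 19.1 ± 1.41 CPM (n = 2) in Kupffer day 0. Clec4f, a lectin specific to Kupffer cells, was at 17.2 ± 3.61 and 1073 ± 74.3 CPM. Endothelial markers nevertheless took 2.58% and 2.73% of the counts of the Kupffer libraries, against 0.804% to 0.891% for Kupffer cell markers. With bulk RNA, fewer cells of a type and less RNA per cell cannot be told apart.

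Together the 6 Ly6 genes took 0.320% and 0.339% of all counts in the Kupffer day 0 libraries and 2.09%, 1.79%, 1.82% and 1.63% in CD40 day 2 libraries a to d. Of the 6, 4 were higher in CD40 day 2 and 0 were lower (edgeR quasi-likelihood test, adjusted p under 0.05 over all genes tested). Among all genes tested, 23.2% were called higher and 30.2% lower. The libraries of the 2 groups did not overlap for these 4 members, all higher, which was the case for 29.7% of all genes tested, while 66.6% did not overlap in either direction. The members' median log2 fold change was 2.25, against -0.10 over all genes tested.

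**Figure D1:**
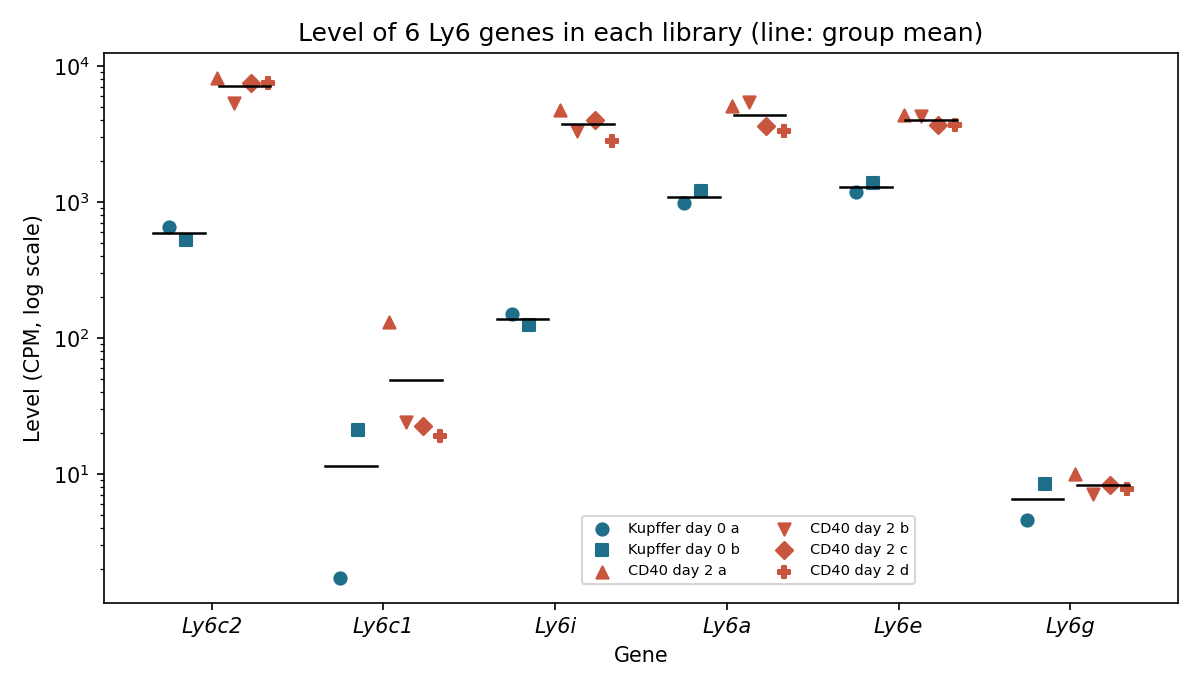
Level of each Ly6 gene (CPM, log axis) in 2 Kupffer day 0 libraries (blue) and 4 CD40 day 2 libraries (red), with lines at the group means. The groups are apart for Ly6c2, Ly6i, Ly6a and Ly6e and overlap for Ly6c1 and Ly6g, and CD40 day 2 a stands at 130 CPM of Ly6c1.

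Ly6c2 encodes the Ly6C protein of monocytes. Its level was 648 and 522 CPM in the Kupffer day 0 libraries and 8130, 5329, 7490 and 7417 CPM in CD40 day 2. The lowest CD40 library, b, was 8.22 times the higher Kupffer library. The log2 fold change was 3.60 ± 0.25 SE (edgeR adjusted p = 2.98e-06), or 12.1-fold. Because Ly6c1 shares so much sequence, the counts of both genes were also summed and fitted as 1 gene, which gave 3.58 ± 0.25 SE (edgeR adjusted p = 2.86e-06). The sum does not depend on how counts were split between these genes, but it was almost all Ly6c2. Pooled counts of Ly6c2 were 1504 in Kupffer day 0 and 41605 in CD40 day 2, against 18 and 241 for Ly6c1. Its result therefore had to lie near that of Ly6c2 alone and does not test the split.

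Ly6i, a GPI-anchored relative found on cells of the blood lineage, had the largest log2 fold change of the 6 genes. It was at 150 and 124 CPM in Kupffer day 0 and at 4759, 3306, 3999 and 2794 CPM in CD40 day 2. The lowest CD40 library, d, was 18.6 times the higher Kupffer library. The log2 fold change was 4.75 ± 0.29 SE (edgeR adjusted p = 1.62e-06), or 27.0-fold, and it ranked 50 among the 9852 genes by size of rise. A log2 fold change of 3 or more upwards, which Ly6c2 and Ly6i had, was seen in 3.08% of all genes tested.

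Ly6a, the gene of Sca-1, was at 985 and 1194 CPM in Kupffer day 0. In CD40 day 2 it was at 5091 and 5418 CPM in libraries a and b and at 3603 and 3309 CPM in c and d. All 4 lay above both Kupffer libraries, the lowest by 2.77 times. The log2 fold change was 2.00 ± 0.25 SE (edgeR adjusted p = 0.000131), or 4-fold.

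Ly6e, whose product is known as an interferon-induced factor that alters the entry of several viruses, was at 1177 and 1380 CPM in Kupffer day 0. It was at 4351, 4282, 3663 and 3641 CPM in CD40 day 2, the tightest set of values among the members in that group (coefficient of variation 9.65%). The groups did not overlap, and the lowest CD40 library was 2.64 times the higher Kupffer library. The log2 fold change was 1.64 ± 0.18 SE (edgeR adjusted p = 4.92e-05), or 3.12-fold. As with Ly6a, libraries a and b were above c and d.

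Ly6g, the neutrophil marker, was close to the limit of detection. Its counts were 8 and 6 in Kupffer day 0 and 11, 5, 18 and 13 in CD40 day 2, or 4.59 and 8.36 CPM against 10.01, 7.07, 8.19 and 7.74 CPM. The groups overlapped, and the 95% counting interval of Kupffer day 0 b, 3.07 to 18.2 CPM, held the values of all 4 CD40 libraries. That of the deeper Kupffer day 0 a, 1.98 to 9.05 CPM, held those of b, c and d but not of CD40 day 2 a. The log2 fold change was 0.48 ± 0.43 SE (edgeR adjusted p = 0.372), so a difference was not detectable at this depth. Without Kupffer day 0 a the value turned to -0.0155.

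Ly6c1, the near-copy of Ly6c2, did not pass the test. Its counts were 3 and 15 in Kupffer day 0 and 143, 17, 49 and 32 in CD40 day 2. As levels these are 1.72 and 20.9 CPM against 130, 24.0, 22.3 and 19.1 CPM. CD40 day 2 a was 5.41 times the next library of its group, while the other 3 lay close to Kupffer day 0 b, so the groups overlapped. The log2 fold change was 2.50 ± 1.12 SE (edgeR adjusted p = 0.0852). It was 1.34 without CD40 day 2 a (adjusted p = 0.157), 1.19 without Kupffer day 0 a (0.504) and 4.73 without Kupffer day 0 b (0.0542). The gene was called without CD40 day 2 b (2.77, edgeR adjusted p = 0.0478) and without CD40 day 2 d (2.80, 0.0495). It was also called with no filter on low counts (2.51, edgeR adjusted p = 4.86e-10). That setting also took the edgeR adjusted p of Ly6c2 to 1.73e-60 and of Ly6e to 1.18e-15, at log2 fold changes of 3.60 and 1.65. Ly6g stayed uncalled there (edgeR adjusted p = 0.545). The small p-value without the filter is thus not particular to Ly6c1.

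**Figure D2:**
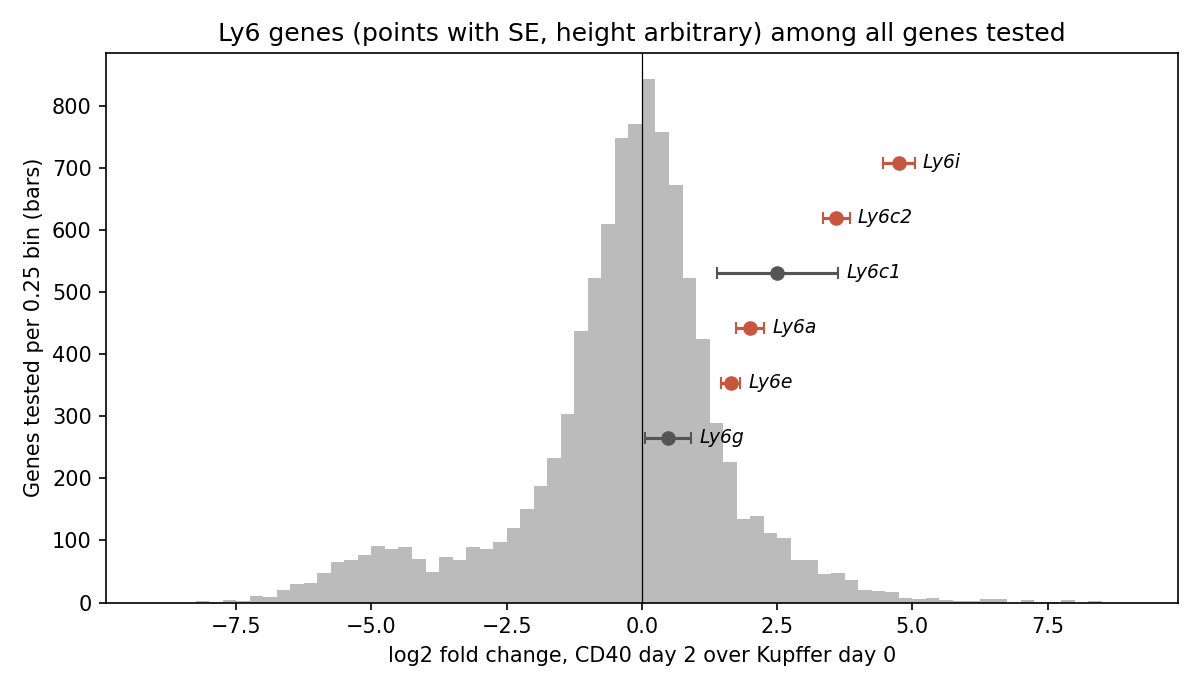
Log2 fold change of the 6 Ly6 genes (points, bars give ± SE, red where the adjusted p is under 0.05, grey where it is not, height without meaning) over the distribution of all 9852 genes tested (grey bars, number of genes per bin). Ly6i at 4.75 and Ly6c2 at 3.60 lie in the upper tail, Ly6a at 2.00 and Ly6e at 1.64 on its shoulder, and Ly6g at 0.48 near the middle.

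Members were also set against each other within a library, where scaling between libraries cancels. For each 100 Ly6c2 counts there were 23.1 and 23.7 Ly6i counts in Kupffer day 0 and 58.5, 62.0, 53.4 and 37.7 in CD40 day 2. The groups did not overlap, and the log2 ratio was 1.15 higher in CD40 day 2. An exact permutation test of 4 against 2 libraries gave p = 0.0667, two-sided, the smallest it can give, and 0.2 after Benjamini-Hochberg adjustment over 3 ratios. The ratio was higher in 4 of 4 CD40 libraries, but a test of 6 libraries cannot pass the threshold.

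For each 100 Ly6e counts there were 83.7 and 86.5 Ly6a counts in Kupffer day 0 and 117, 127, 98.4 and 90.9 in CD40 day 2. These did not overlap either, but the difference in log2 ratio was 0.33, with library d only just above the Kupffer libraries (exact permutation p = 0.133, adjusted 0.2). For each 100 Ly6c2 counts there were 0.266 and 4 Ly6c1 counts in Kupffer day 0 and 1.60, 0.451, 0.298 and 0.257 in CD40 day 2. The groups overlapped (difference in log2 ratio -1.20, exact permutation p = 0.467, adjusted 0.467), and the sign turned to 0.67 without Kupffer day 0 b.

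**Figure D3:**
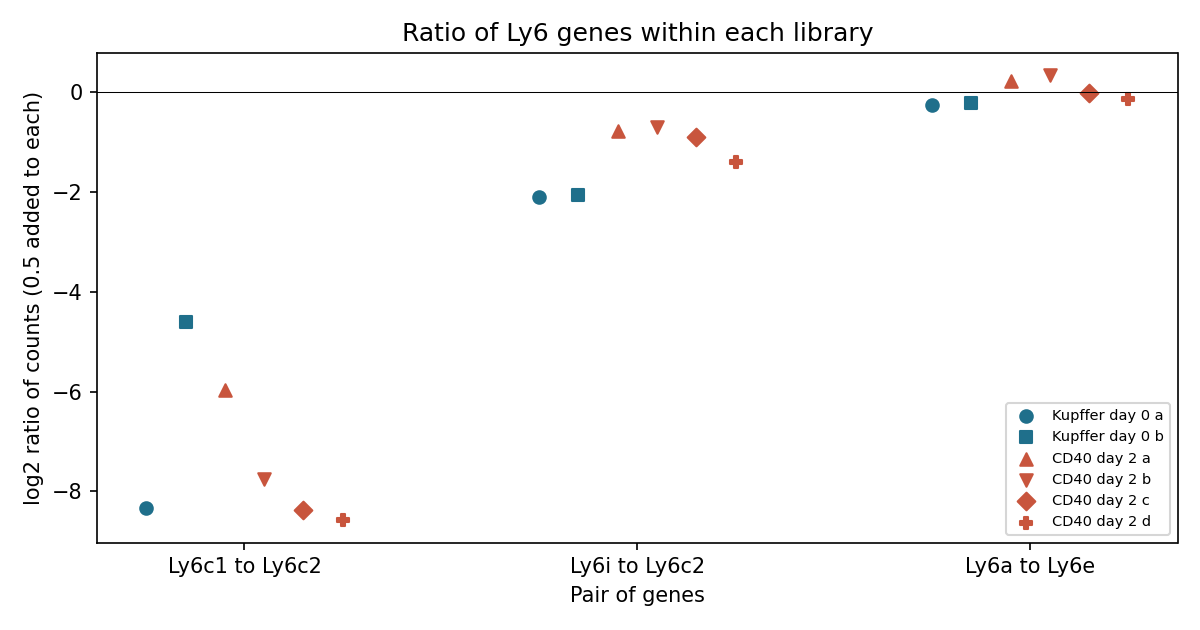
Log2 ratio of the counts of Ly6 gene pairs within each library (0.5 added to each count), Kupffer day 0 in blue and CD40 day 2 in red. Ly6i to Ly6c2 is higher in every CD40 library, Ly6a to Ly6e differs by less, and Ly6c1 to Ly6c2 overlaps between the groups.

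The make-up of the family's counts shifted with these folds. Ly6a and Ly6e together held 72.9% and 79.2% of the members' counts in Kupffer day 0 and 42.0%, 52.8%, 38.7% and 40.4% in CD40 day 2. Ly6c2 and Ly6i together held 26.9% and 19.9% in Kupffer day 0 and 57.4%, 47.0%, 61.2% and 59.4% in CD40 day 2. Within CD40 day 2, library b had the lowest share of Ly6c2 and Ly6i together. Taken alone, Ly6c2 was lowest in b (29.0%) and Ly6i in d (16.3%). Counts at the 3' end are not scaled to transcript length, so these shares describe counts and not molecules of protein.

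**Figure D4:**
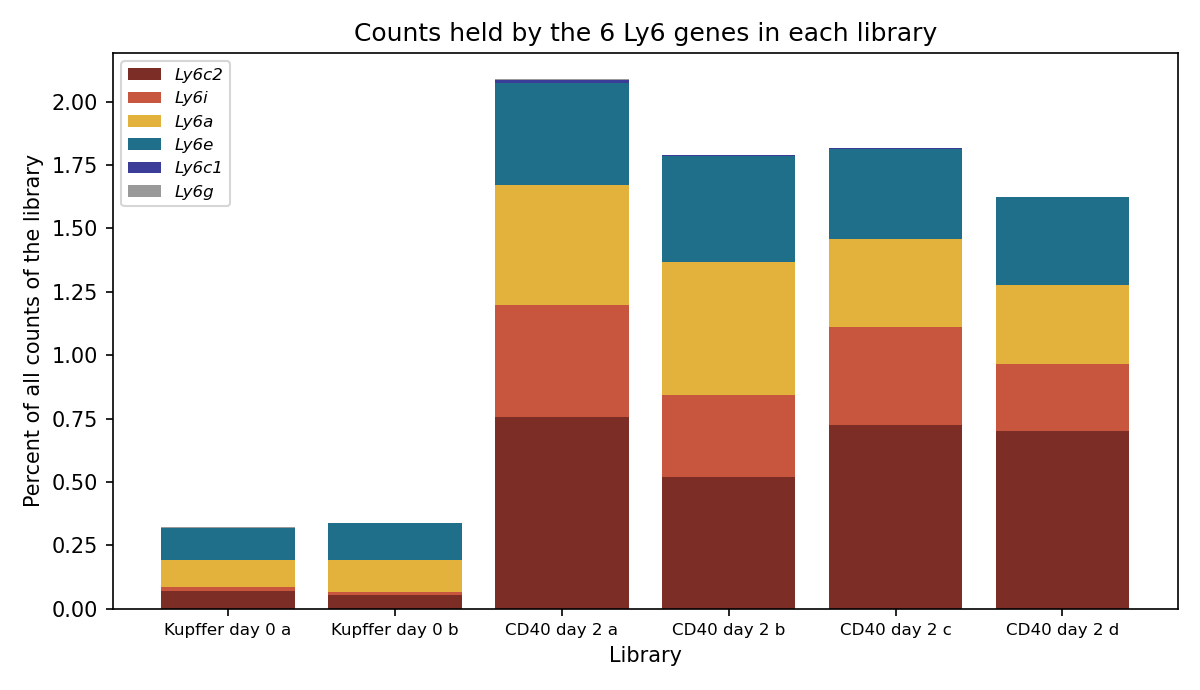
Percent of all counts of each library held by the 6 Ly6 genes, stacked by gene. The stacks reach 0.320% and 0.339% in Kupffer day 0 and 1.63% to 2.09% in CD40 day 2, with Ly6c1 and Ly6g too small to see in most libraries.

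Upstream sequence is shown for Ly6c1 and Ly6c2, whose coding sequences are nearly the same. Ly6c1 counts per 100 Ly6c2 counts were 0.257 to 0.451 in Kupffer day 0 a and CD40 day 2 b, c and d. They were higher in Kupffer day 0 b (4) and CD40 day 2 a (1.60), and the split of counts between these genes is uncertain. The 250 bases before the first RefSeq start of each (GRCm38.p6, minus strand) are shown 5′ to 3′, with motif matches in capitals. Ly6c1 is chr15:75048838-75049087 and Ly6c2 is chr15:75111972-75112221.
Ly6c1: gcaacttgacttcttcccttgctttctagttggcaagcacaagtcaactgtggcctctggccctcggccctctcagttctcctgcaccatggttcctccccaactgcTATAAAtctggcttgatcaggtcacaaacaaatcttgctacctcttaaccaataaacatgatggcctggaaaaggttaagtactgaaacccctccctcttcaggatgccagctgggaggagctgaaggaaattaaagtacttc
Ly6c2: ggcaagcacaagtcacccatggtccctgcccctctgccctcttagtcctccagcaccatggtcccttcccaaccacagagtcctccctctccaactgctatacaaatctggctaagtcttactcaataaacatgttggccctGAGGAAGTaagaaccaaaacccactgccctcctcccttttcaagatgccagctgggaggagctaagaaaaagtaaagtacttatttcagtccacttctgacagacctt
RefSeq windows of 300 bases, 250 before a start to 50 after it, were found for 3 members, Ly6c1, Ly6c2 and Ly6g, with 2 starts each. Both strands were searched for TATAAA, the TATA box, held by 13.6% of 32851 such windows, and for GAGGAAGT, a core bound by the myeloid factor PU.1, held by 3.20%. The 2 windows of a gene overlap, so 1 site can be counted in both. TATAAA was present in the first Ly6c1 window and, as 1 site, in both Ly6g windows. GAGGAAGT was present 2 times in each Ly6c2 window, at the same 2 sites. It was present 1 time in the second Ly6c1 window and 1 and 2 times in the Ly6g windows, with 1 site in both. The first Ly6c1 window ends inside the GAGGAAGT found in the second, so its absence there comes from the window edge. The second GAGGAAGT of the first Ly6c2 window lies after the start and is not in the stretch shown. The core of the interferon-stimulated response element (3.44% of windows) was absent from all 6 windows, and the C/EBP core TTGCNNAA (10.8%) was in 1 Ly6g window. These are matches of letters only.

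Other genes of the Ly6/uPAR superfamily went in both directions. Of 42 listed, 14 were in the table and 5 passed the filter, of which 1 was called higher, 2 lower and 2 neither. Their median log2 fold change was -0.73. Over all genes tested 23.2% were called higher and 30.2% lower, the background for this list and those below. Gpihbp1, which carries lipoprotein lipase across capillary endothelium and lies on the same chromosome (15, 75596628 to 75599481), was at 4411 and 5278 CPM in Kupffer day 0 and at 206, 79.2, 91.5 and 70.9 CPM in CD40 day 2. It fell by 5.44 ± 0.38 SE on the log2 scale (edgeR adjusted p = 3.27e-06). Cd59a, an inhibitor of the complement membrane attack complex (chromosome 2, 104095801 to 104115354), fell by 5.68 ± 0.47 SE (edgeR adjusted p = 8.26e-06), from 503 ± 27.1 (n = 2) to 10.2 ± 9.76 CPM (n = 4).

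Plaur, the receptor of the protease urokinase (chromosome 7, 24462484 to 24475968), was at 55.7 and 106 CPM in Kupffer day 0 and 481, 250, 447 and 398 CPM in CD40 day 2. It rose, with a log2 fold change of 2.34 ± 0.34 SE (edgeR adjusted p = 0.0003). Ly6d, a marker of lymphoid progenitors, had 21 and 25 counts against 22, 28, 4 and 5 and did not pass (-0.73 ± 0.97 SE, edgeR adjusted p = 0.555). Ly6k, known from testis, had 3 and 0 counts against 17, 19, 2 and 0 (2.70 ± 1.81 SE, edgeR adjusted p = 0.234), with most of its counts in CD40 libraries a and b. Without Kupffer day 0 b, 2 genes of this list were called higher.

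Since the members are GPI-anchored, the genes that build and attach the anchor were counted. Of 31 listed, 22 were tested, 3 were called higher, 4 lower and 15 neither, with a median log2 fold change of 0.09. Pgap2, which remodels the anchor's lipid in the Golgi, rose from 36.5 ± 4.38 (n = 2) to 175 ± 11.4 CPM (n = 4), and Pigs, a subunit of the transamidase that attaches the anchor, rose by a log2 fold change of 1.10 ± 0.28 SE (edgeR adjusted p under the threshold for both). Pigp and Pigc, subunits of the enzyme of the first step, fell by 1.71 ± 0.32 and 0.72 ± 0.21 SE on the log2 scale. Without Kupffer day 0 a this list had 2 higher and 0 lower calls, and without Kupffer day 0 b 1 and 1.

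Other GPI-anchored surface proteins went in both directions. Of 28 listed, 12 were tested, 3 were higher, 5 lower and 4 neither, with a median of -0.44. Over all genes tested 23.2% were higher and 30.2% lower, so these counts do not set the list apart. Without CD40 day 2 b, 5 were higher. Cd52, a small glycoprotein of leukocytes, rose from 410 ± 118 (n = 2) to 4813 ± 237 CPM (n = 4). The folate receptor Folr2 fell from 260 ± 14.9 to 2.94 ± 1.45 CPM, the complement regulator Cd55 from 136 ± 14.1 to 3.20 ± 2.17 CPM and the ephrin Efna1 from 194 ± 26.8 to 4.19 ± 3.43 CPM.

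Interferon-responsive genes, a class to which Ly6a and Ly6e belong by background knowledge, were counted without the members. Of 35 type I interferon response genes tested, 26 were higher, 0 lower and 9 neither, with a median log2 fold change of 1.56. The list took 1.73%, 1.70%, 1.52% and 1.43% of counts in CD40 day 2 a to d and 0.439% and 0.440% in Kupffer day 0, with a and b above c and d. Gene by gene, 22 of the 35 (62.9%) were highest in a or b, a share near the 55.3% of all genes tested. That count takes only the highest library, and does not say whether a and b both lay above c and d. Zbp1, a nucleic acid sensor, had a log2 fold change of 3.88 ± 0.19 SE and Isg15, a ubiquitin-like modifier, of 2.54 ± 0.19 SE.

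Of 20 interferon gamma response genes tested, 16 were higher, 1 lower and 3 neither (median 1.77). Gbp2 and Gbp5, guanylate-binding proteins that act on intracellular pathogens, had log2 fold changes of 3.55 ± 0.31 and 3.16 ± 0.23 SE. Of 11 interferon receptor and proximal signalling genes, 4 were higher, 2 lower and 5 neither (median 0.41), and 2 were higher without CD40 day 2 c or without Kupffer day 0 b. Jak1, a kinase of both receptors, fell from 1040 ± 69.8 (n = 2) to 229 ± 33.2 CPM (n = 4).

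Classical monocyte markers, counted without Ly6c2, rose in 13 of 17 tested, with 0 lower and 4 neither, and with a median log2 fold change of 3.02. Ms4a4c and Ms4a6c, membrane proteins of monocytes, had log2 fold changes of 4.49 ± 0.23 and 3.65 ± 0.19 SE, and Plac8, a cytosolic monocyte gene, of 3.64 ± 0.19 SE. The list took 0.472% and 0.559% of counts in Kupffer day 0 and 3.25%, 2.24%, 3.18% and 3.09% in CD40 day 2. Library b was lowest for this list and for Ly6c2. Its share of conventional dendritic cell markers was the highest of the group, 0.144% against 0.0658% to 0.0837%, with all 10 tested genes of that list highest in b. Of the cell cycle genes 15 of 16 were highest in b, and of all genes tested 30.2% were. The part of cell make-up in the lower Ly6c2 of library b was not tested.

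Non-classical monocyte markers were higher in 7 of 10 tested, lower in 1 and neither in 2 (median 1.33). Neutrophil markers, Ly6g among them, were higher in 3 of 15, lower in 2 and neither in 10, with a median of 0.13. They took 0.120% and 0.371% of counts in Kupffer day 0 a and b and 0.116% to 0.203% in CD40 day 2. Kupffer day 0 b, the library with more Ly6c1, thus had the larger neutrophil share. It also had the larger share of hepatocyte markers (0.145% against 0.0633%, higher for 13 of 13 genes) and of B and plasma cell markers (higher for 6 of 6). Neutrophil markers without Ly6g were higher in b for 13 of 14, and of all genes tested 46.9% were. The part of RNA of these cells in the Ly6c1 counts was not tested. For Ly6g the counting intervals of Kupffer day 0 a and b overlapped. Without Kupffer day 0 a, 5 neutrophil markers were called lower, and without b 1 was.

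T and NK cell markers were higher in 1 of 6 tested and lower in 0, and took 0.0312% to 0.0319% of counts in Kupffer day 0 and 0.0412% to 0.0659% in CD40 day 2. B and plasma cell markers were higher in 1 of 6 and lower in 2 (0.0672% and 0.188% against 0.0444% to 0.0621%), with 0 lower without Kupffer day 0 b. Plasmacytoid dendritic cell markers were higher in 3 of 5 and lower in 1. Conventional ones were higher in 3 of 10 and lower in 3, shares near the 23.2% and 30.2% of all genes tested. Their median log2 fold change was nevertheless 2.38. Their higher calls came to 3 without CD40 day 2 a, 5 without b, 5 without c and 7 without d, so the count depends on the libraries. Stellate cell markers were lower in 11 of 11, hepatocyte markers lower in 9 of 13 and higher in 1, and Kupffer cell markers lower in 12 of 20 and higher in 3, with 1 higher without Kupffer day 0 b. Cell cycle genes were higher in 1 of 16 and lower in 1. Their higher calls came to 0 without CD40 day 2 c or Kupffer day 0 b and to 2 without CD40 day 2 d, and their lower calls to 2 without CD40 day 2 b.

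Endothelial cells are a known source of Ly6c1, and their markers were lower in CD40 day 2 in 19 of 19 tested (median log2 fold change -5.21), also when any 1 library was left out. They took 2.58% and 2.73% of counts in Kupffer day 0 and 0.115%, 0.0664%, 0.0650% and 0.0520% in CD40 day 2 a to d. CD40 day 2 a, the library of high Ly6c1, was the highest of its group for 18 of the 19 genes, against 25.1% of all genes tested. It was also the highest for Gpihbp1 and for 10 of 13 hepatocyte markers, which took 0.0382% of its counts against 0.0257% to 0.0281% in the other 3. A further count was chosen after the values were seen, over 5525 genes with a mean of at least 20 CPM in the CD40 day 2 libraries. Of these, 38 were at least 2 times higher in CD40 day 2 a than in the next library of the group. Of the genes in the lists, these were Gpihbp1, 3 endothelial markers (Egfl7, Clec4g and Ramp2), Fabp4 of the non-classical monocyte list and Hdc of the neutrophil list. Some of the 19 endothelial markers, such as Bmp2 (13.7 CPM) and Stab2 (17.5 CPM), had a lower mean and could not enter the count. Ly6c1 is 1 of the 38 by the way the count was chosen. The Kupffer libraries, with the much larger endothelial share, had only 1.72 and 20.9 CPM of Ly6c1. The part of endothelial or hepatocyte RNA in the Ly6c1 counts was not tested.

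**Figure D5:**
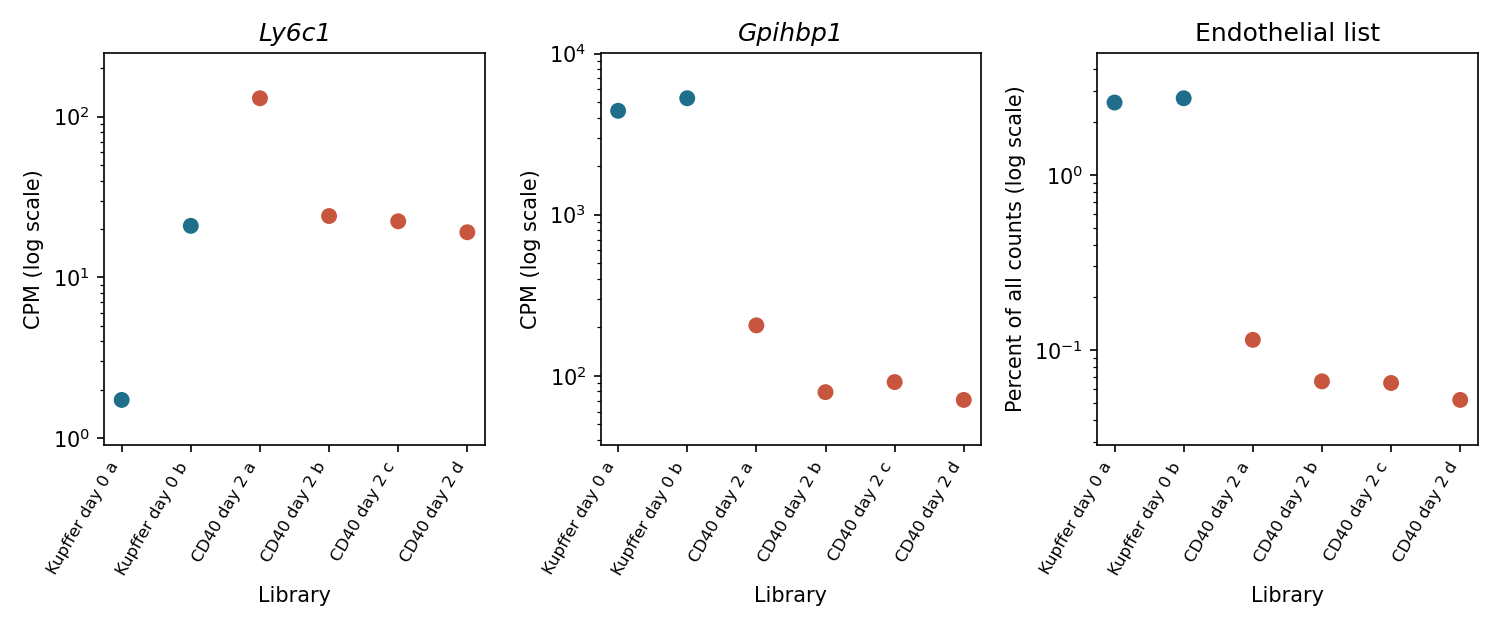
Level of Ly6c1 and of Gpihbp1 (CPM) and the share of all counts in endothelial markers (percent), each on a log axis, in 2 Kupffer day 0 libraries (blue) and 4 CD40 day 2 libraries (red). Within CD40 day 2, library a is highest in all 3 panels, whereas the Kupffer libraries are high for Gpihbp1 and the endothelial list but not for Ly6c1.

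For each member, the genes most like it across the 6 libraries were found by the root mean square difference of centred log2(CPM + 1) profiles. The 5670 candidates had a mean of at least 20 CPM over all 6 libraries. The values describe likeness and carry no test, since the difference between the groups dominates them. Ly6c2 was closest to Pdk3 (0.10), Ms4a6c (0.12) and Snx10 (0.12), against a median of 1.70 over all candidates. Ly6i was closest to Spon1 (0.17), Ms4a4c (0.23) and Slamf8 (0.25).

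Ly6a was closest to Dennd1c (0.068), Txn1 (0.080) and Tmub1 (0.12), and Ly6e to Parp11 (0.071), Nol12 (0.073) and Cox7b (0.086). Among the members themselves, Ly6a and Ly6e differed by 0.22 and Ly6c2 and Ly6i by 0.58, while Ly6c1 and Ly6c2 differed by 1.43. The nearest genes to Ly6c1 were Mxd1 (0.74), Dgat2 (0.89) and Saa1 (0.92), so no candidate followed its profile as closely as those of the 4 called members were followed. Ly6g was closest to Elovl1 (0.081), Tmem183a (0.081) and Icam1 (0.10), on counts too low to carry much.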

How the data were processed

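The deposited table holds raw counts per gene symbol, per the file header and its whole-number values. Per the labels' protocols, cDNA was barcoded with molecular identifiers and read at the 3' end. The submitters' processing notes name GRCm38.p6 and DESeq2 1.22.2. The aligner is not given in the sources used here, nor is the unit counted (reads or molecular identifiers). Of the symbols, 17 had become dates (0.0846% to 0.151% of counts). Columns of the other 2 groups were not read by gene, since in each of those groups column a falls along the whole table with 1 step up, whereas the row order follows Kupffer day 0 a. That column, which also falls (0 steps up), was read by gene. Its rank correlation with the unsorted Kupffer day 0 b was 0.947 across 8009 genes with at least 20 counts, genes not being independent replicates. Counts of 6 libraries were tested with edgeR 4.0.16 in R 4.3.3 (filterByExpr, TMM, quasi-likelihood test, no block, two-sided, Benjamini-Hochberg over 9852 genes, threshold 0.05). CPM use TMM-adjusted totals of the tested genes. The biological coefficient of variation was 20.4%. The fit was tested on simulated data with 200 changed genes, as many up as down. In the real data 5262 genes were called, more of them lower than higher. The simulation therefore does not show how the fit or the scaling behaves with so many changes. Alternatives were other scaling, filters, DESeq2 1.42.0, limma-voom (limma 3.58.1) and leaving out each library. No pair of libraries in a group agreed within sampling noise (chi-square divided by its degrees of freedom, 3.17 to 11.7). Ratios used 0.5 added to each count and an exact permutation test (SciPy 1.17.1). Counting intervals are exact Poisson intervals at 95% and cover counting error only. Members and gene lists (19) were chosen with earlier results of these data known. Named genes are the members, up to 4 of each list with the lowest adjusted p, all tested superfamily genes, cluster genes and the 3 closest profiles. Other named genes were chosen after their values were seen. 1 gene that this rule names is not reported here.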

Additional observations from a re-analysis of the deposited data

Results flagged for a closer look

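Ly6c1 in CD40 day 2 a stood apart from the other 3 libraries of its group, at 130 CPM against 19.1 to 24.0 CPM, by a test of the gap between the farthest library and the next (Dixon's criterion at 95%). Chance alone sets apart about 1 in 20 groups by this criterion. The 95% counting interval of that library, 109.7 to 153 CPM, did not meet the intervals of the other 3, the highest of which reached 38.5 CPM. The 5 other members had no library set apart in this way.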

How the results depend on the processing

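Ly6c2, Ly6i, Ly6a and Ly6e kept their direction and their call in all 12 other settings, with log2 fold changes of 3.43 to 3.78, 4.58 to 4.90, 1.84 to 2.15 and 1.48 to 1.76, and highest adjusted p of 0.00026, 0.000184, 0.00608 and 0.00276. Between 4 and 5 members were called. The 5262 genes called in all became 3206 without Kupffer day 0 a (3206 to 5514 when 1 library was left out). Leaving out 1 library moved Ly6g from -0.0155 to 0.84, Ly6c1 from 1.19 to 4.73 and the log2 ratio of Ly6c1 to Ly6c2 from -3.07 to 0.67. Ly6g was not tested when 10 counts in 4 libraries were required. Scaling by total counts moved the median over all genes from -0.10 to -0.27 and changed the direction of no member. Leaving out a Kupffer library leaves 1 in that group, which is then assumed to vary like the others. Summing Ly6c1 and Ly6c2 was chosen after seeing the data. No paired analysis was possible because the columns carry no replicate numbers. Depth limits Ly6g, where 1 count is worth 0.455 to 1.41 CPM. Ly6c1 varied between libraries of 1 group by more than counting error.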
